A study of Saccharomyces cerevisiae with 25 samples.

Results

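Of the 25 yeast cultures in this RNA-seq series, 6 (1A, 2A, 2B, 4B, 5A and 5B) were harvested in batch 1, and the other 19 in batches 2 and 3 (7 and 12 cultures). The batches are those of the study's own sample table, in which culture letters A and B are harvest batch 1, C and D are batch 2, and E to G are batch 3. What set the harvests apart beyond that number was not given in the sources used here. The series holds 5 cultures of each of 5 haploid *Saccharomyces cerevisiae* strains, all in the BY4741 background (MATa his3Δ1 leu2Δ0 met15Δ0 ura3Δ0) and grown in defined glucose medium supplemented with histidine, leucine, methionine and uracil. The edited strains carried a coding variant of the glucose sensor *RGT2* (V539I), a coding variant of the fatty acid transcription factor *OAF1* (L63S), or the FAR variant upstream of the fatty acid desaturase *OLE1*. Both wild types were themselves products of CRISPR-Swap, an allele exchange by Cas9 cleavage of an inserted cassette. YFA1130 had lost the GFP tag of *FAA4*, and YFA1131 had received the BY allele of *RGT2* in place of a kanMX deletion. Batch 1 held 1 culture of *RGT2(V539I)*, 2 of *OAF1(L63S)*, 1 of YFA1130 and 2 of YFA1131. The later harvests held 4, 3, 4 and 3 cultures of these strains and all 5 cultures of *OLE1(FAR)*, which has no batch 1 culture and adds only to the estimate of the spread.

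Yeast cells on glucose match the making of ribosomes to their growth rate. When growth slows or glucose becomes limiting, nutrient signalling through protein kinase A and TORC1 turns down the genes for ribosomes and their assembly. The transcription factors Msn2 and Msn4 then turn on stress and reserve carbohydrate genes, while relief of glucose repression raises mitochondrial genes, and amino acid shortage acts separately through Gcn4. The sets of genes below were drawn up from such roles, and the comparison asks which of them followed the harvest.

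Total estimated counts were 10794026 to 12458887 per library in batch 1 (median 11326980) and 9216531 to 14644996 in the later harvests (median 10933666). Batch 1 cultures were spread over 4 of the 5 RNA isolation batches, and 4 of the 6 were in the first of the 2 library preparation batches, as were 8 of the 19 later ones. The RNA integrity number of the sample table did not separate the harvests (exact permutation test, two-sided, p = 1.0, n = 6 and 19). RNA concentration did not pass the test either, with an exact two-sided permutation p = 0.1831 for 6 against 19 cultures.

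The libraries labelled 2A and 3C went against their labels in genes that mark the edited strains. *MGA2*, which encodes an activator of *OLE1*, was at 289 CPM (counts scaled to a common library size by TMM) in 2A and 281 to 315 CPM in the 4 *OLE1(FAR)* libraries other than 3C. It was at 119 CPM in 3C and 101 to 128 CPM in the 4 *OAF1(L63S)* libraries other than 2A. *IZH4*, a zinc- and fatty acid-regulated membrane protein gene, was at 47.6 CPM in 2A and 45.3 to 50.7 CPM in *OLE1(FAR)*, against 2.43 CPM in 3C and 2.63 to 3.67 CPM in *OAF1(L63S)*. *POX1*, the acyl-CoA oxidase of peroxisomal beta-oxidation, was at 28.4 CPM in 3C and 17 to 22.8 CPM in *OAF1(L63S)*, against 1.58 CPM in 2A and 0.419 to 2.00 CPM in *OLE1(FAR)*. In all 3 genes each of these 2 libraries fell within or beside the range of the other's labelled strain and outside that of its own.

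The same held for harvest. In a fit without both libraries, 2179 genes differed between the 5 remaining batch 1 and the 18 remaining later libraries. A score, the mean log2 CPM of the genes higher in batch 1 minus that of the genes lower in batch 1, was -1.01 to -0.97 in those 5 libraries and -1.67 to -1.38 in those 18. The genes were chosen on these 23 libraries, so the gap between them is fixed by the choice. The 2 left out were not used for it, and 2A scored -1.49 and 3C -1.01. Of the 2179 genes, 2A was closer to the later mean at 1814 (83.2%) and 3C closer to the batch 1 mean at 1785 (81.9%). Both libraries are kept under their labels here, and the main counts are also given without them.

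**Figure D1:**
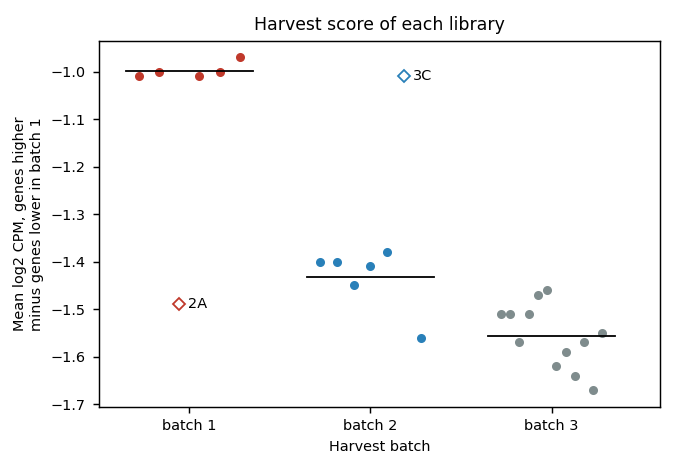
Harvest score of each of the 25 libraries (mean log2 CPM of genes higher in batch 1 minus that of genes lower in batch 1, y axis) by harvest batch (x axis). Points are libraries, lines are batch means without 2A and 3C, and open diamonds are those 2 libraries, which were not used to choose the genes. 2A (-1.49) lies among the later libraries and 3C (-1.01) among those of batch 1.

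Of 5713 genes tested with strain as a covariate, 850 were higher and 853 lower in batch 1 than in the later harvests at an FDR of 10%, or 14.9% in each direction (quasi-likelihood test of edgeR, adjusted by the Benjamini-Hochberg method over all genes, the source of all adjusted p-values below). Without 2A and 3C, 1083 genes (19%) were higher and 1096 (19.2%) lower, among them 1672 of the 1703 called in all 25 libraries, in the same direction. Batch 1 is a single harvest batch, so its cultures do not replicate the harvest, and these tests do not measure the spread between harvests. Most differences were small. The median size of a called log2 fold change was 0.21, and 155 of the called genes differed by over 0.5 and 16 by over 1. The difference did not vary detectably between the 4 strains with a batch 1 culture. No gene passed the FDR for the strain by harvest terms, with 373 at an unadjusted p under 0.05. Of these strains *RGT2(V539I)* and YFA1130 had a single batch 1 culture each.

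Below, levels are CPM, and a range is over the 5 batch 1 libraries other than 2A or the 18 later libraries other than 3C, with 2A and 3C given beside it. Log2 fold changes are batch 1 over later harvests from the fit to all 25 libraries. Beside the counts by FDR, some sets are described by how many members had all 5 batch 1 libraries above, or all 5 below, the 18 later ones, which held for 2.99% and 4.08% of all genes.

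Genes of ribosome production were lower in batch 1. The libraries are from whole cultures, in which a smaller share of cells in one state and less RNA per cell cannot be told apart. Of 117 ribosome biogenesis factors, which process and assemble ribosomal RNA in the nucleolus, 94 were lower and none higher, with a median log2 fold change of -0.24 against 0.01 over all genes. All 5 batch 1 libraries were below all 18 later ones at 56 of the 117. The called members fell by 0.12 to 0.53 on the log2 scale. *NHP2*, a protein of the box H/ACA particles that guide pseudouridylation of ribosomal RNA, was at 223 to 255 CPM (median 230) in batch 1 and 287 CPM in 2A, against 282 to 332 CPM (median 306) in the later harvests and 228 CPM in 3C (log2 fold change -0.37, SE 0.0546, adjusted p = 0.000148). *DIM1*, the methyltransferase that modifies the RNA of the small ribosomal subunit, was at 111 to 118 CPM (median 116) in batch 1 and 152 CPM in 2A, against 141 to 181 CPM (median 162) in the later harvests and 112 CPM in 3C (log2 fold change -0.45, SE 0.0720, adjusted p = 0.000249). For both genes the batch 1 and later ranges did not meet, 2A was among the later values and 3C among those of batch 1. *RRS1*, needed for assembly of the large subunit, was at 114 to 129 CPM (median 123) in batch 1 and 158 CPM in 2A, against 145 to 176 CPM (median 161) in the later harvests and 125 CPM in 3C (log2 fold change -0.36, SE 0.0564, adjusted p = 0.000207). The abundant nucleolar proteins *NOP1* and *NSR1* had log2 fold changes of -0.30 and -0.41 (adjusted p = 0.00348 and 0.00137). Strain by strain, the median over the 117 genes was -0.31 in *RGT2(V539I)*, -0.14 in *OAF1(L63S)*, -0.27 in YFA1130 and -0.28 in YFA1131, and without 2A that of *OAF1(L63S)* was -0.32.

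Subunits of RNA polymerases I and III, which transcribe ribosomal RNA and tRNA, were also lower. Of 19 members, 14 were lower and none higher, with a median of -0.22. *RPC34*, a polymerase III subunit, was at 58.6 to 64.3 CPM (median 62.6) in batch 1 and 75.4 CPM in 2A, against 74.2 to 86.2 CPM (median 80.8) in the later harvests and 61.4 CPM in 3C (log2 fold change -0.36, SE 0.0577, adjusted p = 0.000266). *RPA49* and *RPA43* of polymerase I had log2 fold changes of -0.30 each (adjusted p = 0.000518 and 0.000809). Translation initiation and elongation factors had 15 of 28 members lower and none higher, with the smallest adjusted p at the initiation factor genes *TIF35*, *SUI3* and *CDC33*, which had log2 fold changes of -0.24, -0.21 and -0.17.

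Cytosolic ribosomal protein genes differed less than the genes that assemble ribosomes. Of 134 tested, 77 were lower and 3 higher, with a median of -0.11. Only 9 of the 134 had all 5 batch 1 libraries below the later ones, and the mean level of the group in single libraries overlapped, at -0.16 to 0.02 log2 units in batch 1 against -0.09 to 0.11 in the later harvests, relative to the later mean. *RPL3*, a core protein of the large subunit, was at 4636 to 5246 CPM (median 5075) in batch 1 and 5291 CPM in 2A, against 5031 to 6256 CPM (median 5456) in the later harvests and 4605 CPM in 3C (log2 fold change -0.13, SE 0.0441, adjusted p = 0.0402). Among the 3 members that were higher was *RPS9A*, at 0.30 (adjusted p = 0.00163), while its more abundant copy *RPS9B* had -0.10 (adjusted p = 0.0391). These copies share sequence, and their counts were not whole in 14 libraries each, so the split between them rests on how kallisto divided shared reads. Of 10 histone genes, edgeR called 0 and DESeq2 0, with 0 at an unadjusted p under 0.05 in edgeR and a median of -0.05. With isolation and preparation batch and 2 surrogate variables in the fit, 2 of the 10 were lower, against 914 of all 5713 genes.

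**Figure D2:**
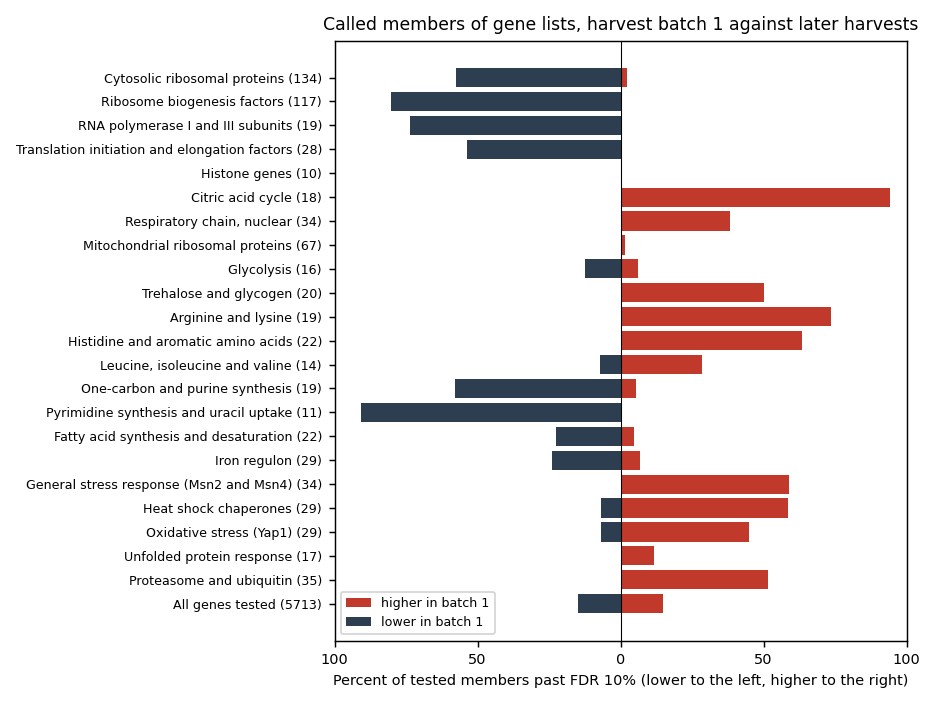
Percent of the tested members of 22 gene sets and of all 5713 genes past an FDR of 10%, lower in batch 1 to the left and higher to the right, with the number of members tested in brackets. Ribosome biogenesis (94 of 117 lower) and pyrimidine synthesis (10 of 11 lower) stand at one end, the citric acid cycle (17 of 18 higher) at the other, and all genes are at 14.9% on each side.

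Mitochondrial energy genes were higher in batch 1. Of 18 citric acid cycle genes, 17 were higher and none lower, with a median of 0.28 and called values from 0.14 to 0.82. *ACO1*, mitochondrial aconitase, was at 1211 to 1576 CPM (median 1437) in batch 1 and 923 CPM in 2A, against 615 to 980 CPM (median 765) in the later harvests and 1298 CPM in 3C (log2 fold change 0.72, SE 0.120, adjusted p = 0.000305). *IDH1*, a subunit of isocitrate dehydrogenase, was at 352 to 433 CPM (median 409) in batch 1 and 256 CPM in 2A, against 198 to 288 CPM (median 235) in the later harvests and 346 CPM in 3C (log2 fold change 0.64, SE 0.101, adjusted p = 0.000227). The 5 batch 1 libraries were above all 18 later ones in both genes, and 2A was within the later range in both, while 3C was within the batch 1 range in *ACO1* and just below it in *IDH1*. *CIT1*, citrate synthase, had a log2 fold change of 0.71 (adjusted p = 0.00137), while its peroxisomal counterpart *CIT2* went the other way at -0.87 (adjusted p = 0.00208). *CIT2* was at 135 to 246 CPM in batch 1 and 216 CPM in 2A, against 213 to 532 CPM in the later harvests and 185 CPM in 3C, so its ranges overlapped.

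Nuclear genes of the respiratory chain had 13 of 34 members higher and none lower (median 0.14), and 22 higher without 2A and 3C. *CYT1*, cytochrome c1, was at 71.6 to 102 CPM (median 86.5) in batch 1 and 63.7 CPM in 2A, against 50.5 to 76.9 CPM (median 60.8) in the later harvests and 98.1 CPM in 3C (log2 fold change 0.45, SE 0.0976, adjusted p = 0.00194). Mitochondrial ribosomal proteins did not share this pattern, with 1 of 67 higher, none lower and a median of 0.03. Glycolytic genes were mixed as well, with 1 of 16 higher, 2 lower and a median of -0.04. *HXK1*, the hexokinase that glucose represses, was among the largest rises of the genes named by rule. It was at 187 to 343 CPM (median 243) in batch 1 and 116 CPM in 2A, against 56.5 to 194 CPM (median 113) in the later harvests and 238 CPM in 3C (log2 fold change 1.09, SE 0.204, adjusted p = 0.000677). *HXK2*, the main hexokinase on glucose, had a log2 fold change of -0.13 (adjusted p = 0.0274). *HXT3*, a low-affinity glucose transporter, was at 3160 to 3381 CPM (median 3344) in batch 1 and 4102 CPM in 2A, against 3703 to 4684 CPM (median 4334) in the later harvests and 3395 CPM in 3C (log2 fold change -0.32, SE 0.0561, adjusted p = 0.000411). The high-affinity transporter *HXT7* had 0.69 (adjusted p = 0.071), a call that was lost when any of 6 single libraries was left out. Counts of these transporter genes, which share sequence, were not whole in 24 or 25 libraries. *HXT1*, whose level marks the *RGT2(V539I)* strain, was at 1060 to 1658 CPM (median 1337) in batch 1 and 1193 CPM in 2A, against 913 to 1443 CPM (median 1189) in the later harvests and 1243 CPM in 3C (log2 fold change 0.20, SE 0.0687, adjusted p = 0.0341).

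Genes of fermentation by-products and reserves supplied several of the largest differences among the genes named by rule. The fermentation set as a whole was mixed, with 4 of 11 members higher, 2 lower and a median of 0.10. *ALD6*, the cytosolic aldehyde dehydrogenase that makes acetate, was at 452 to 608 CPM (median 555) in batch 1 and 230 CPM in 2A, against 113 to 274 CPM (median 189) in the later harvests and 590 CPM in 3C (log2 fold change 1.38, SE 0.236, adjusted p = 0.000366). The mitochondrial aldehyde dehydrogenase *ALD4* had a log2 fold change of 0.87 (adjusted p = 0.000389). *PDC5*, whose counts were not whole, and *ADH4* went the other way at -0.36 and -0.45 (adjusted p = 0.00213 and 0.00868). Trehalose and glycogen genes had 10 of 20 members higher and none lower, with a median of 0.33. Their mean level overlapped, at 0.24 to 0.54 log2 units in batch 1 against -0.38 to 0.81 in the later harvests. *GPH1*, glycogen phosphorylase, was at 48.5 to 73.2 CPM (median 49.2) in batch 1 and 32.8 CPM in 2A, against 14.4 to 39.5 CPM (median 21.5) in the later harvests and 71.1 CPM in 3C (log2 fold change 1.32, SE 0.196, adjusted p = 0.000148). *PGM2*, phosphoglucomutase, and *GSY2*, glycogen synthase, had log2 fold changes of 1.01 and 0.66 (adjusted p = 0.000858 and 0.00778). The ranges of both overlapped. *PGM2* was at 69.7 to 83.0 CPM in batch 1, against 24.3 to 83.4 CPM later. *GSY2* was at 111 to 133 CPM in batch 1, against 53.8 to 147 CPM later. In 2A they were at 37.1 and 70.3 CPM, and in 3C at 82.3 and 122 CPM. *TSL1*, a subunit of the trehalose synthase complex, was at 61.4 to 66.3 CPM (median 63.3) in batch 1 and 19.9 CPM in 2A, against 16.7 to 88.8 CPM (median 26.8) in the later harvests and 67.6 CPM in 3C (log2 fold change 0.96, SE 0.303, adjusted p = 0.0251). The later libraries of *TSL1* lay on both sides of its narrow batch 1 range, and the catalytic subunits *TPS1* and *TPS2* did not pass the test (0.34 and -0.03). With RNA isolation batch as a block *TPS1* passed it at 0.56 (adjusted p = 0.0589). Of 9 genes of glycerol synthesis and use, 5 were higher, among them *GPP2*, the glycerol phosphatase, at 0.55 (adjusted p = 0.000636).

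**Figure D3:**
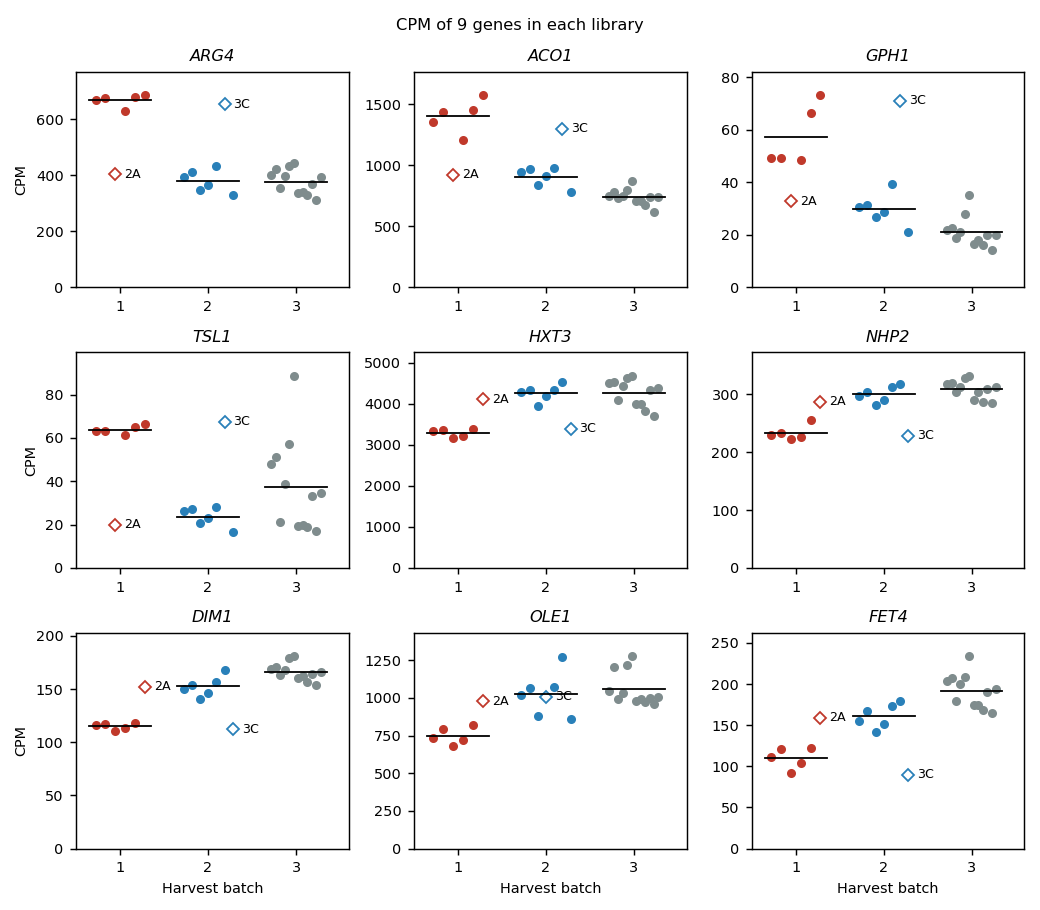
CPM (y axes, from 0) of 9 genes in each of the 25 libraries by harvest batch (x axes). Points are libraries, lines are batch means without 2A and 3C, and open diamonds are those 2 libraries. *ARG4*, *ACO1* and *GPH1* are higher and *HXT3*, *NHP2*, *DIM1*, *OLE1* and *FET4* lower in batch 1 without overlap outside the diamonds, while the later libraries of *TSL1* spread across the batch 1 level.

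Amino acid synthesis was split by pathway. Arginine and lysine genes had 14 of 19 members higher and none lower, with a median of 0.38, and 10 of the 19 had all 5 batch 1 libraries above the later ones. *ARG4*, argininosuccinate lyase, was at 629 to 686 CPM (median 675) in batch 1 and 404 CPM in 2A, against 310 to 442 CPM (median 380) in the later harvests and 653 CPM in 3C (log2 fold change 0.78, SE 0.106, adjusted p = 9.37e-05). Its ranges did not overlap, and 2A was among the later values. *ARG3* and *ARG5,6*, which act between glutamate and citrulline, had log2 fold changes of 0.98 and 0.84 (adjusted p = 0.000249 and 0.000148). *ORT1*, the mitochondrial ornithine transporter, had 0.56 (adjusted p = 0.000144). Histidine and aromatic genes had 14 of 22 members higher and none lower (median 0.22), with *HIS4*, a multifunctional enzyme of histidine synthesis, at 1180 to 1877 CPM (median 1398) in batch 1 and 998 CPM in 2A, against 728 to 1077 CPM (median 916) in the later harvests and 1289 CPM in 3C (log2 fold change 0.68, SE 0.0988, adjusted p = 0.000144). *TRP3* and *TRP4* of tryptophan synthesis had log2 fold changes of 0.41 and 0.37.

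Levels of this group differed among the batch 1 libraries themselves. The mean log2 level of the 19 arginine and lysine genes was 0.25 to 0.70 above the later mean in batch 1 (median 0.40) and 0.16 above it in 2A, against -0.28 to 0.13 in the later harvests and 0.36 in 3C. By strain, the median of the 19 genes was 0.67 in YFA1131, 0.43 in YFA1130, 0.29 in *RGT2(V539I)* and 0.13 in *OAF1(L63S)*, or 0.22 without 2A, and the strain by harvest terms gave no call for any of them. Leucine, isoleucine and valine genes had 4 of 14 higher and 1 lower, and glutamate, serine, threonine and proline genes 8 of 24 higher and 5 lower. The aspartate kinase *HOM3* was at 0.54 (adjusted p = 0.000161) and the glutamine synthetase *GLN1* at -0.24 (adjusted p = 0.00137). *GCN4*, which encodes the activator of many of these genes and is controlled mainly in translation, was at 1275 to 1480 CPM (median 1368) in batch 1 and 1492 CPM in 2A, against 1336 to 1571 CPM (median 1484) in the later harvests and 1282 CPM in 3C (log2 fold change -0.08, SE 0.0426, adjusted p = 0.208). It passed the FDR at -0.10 without 2A and 3C (adjusted p = 0.0346) and at -0.11 with RNA isolation batch as a block (adjusted p = 0.0618). *PCL5*, the cyclin that targets Gcn4 for breakdown and a Gcn4 target itself, had a log2 fold change of 0.66 (adjusted p = 0.000191).

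Nucleotide synthesis genes were lower in batch 1, with 10 of 11 pyrimidine genes (median -0.21) and 11 of 19 one-carbon and purine genes (median -0.17) lower, and 0 and 1 higher. *URA1*, dihydroorotate dehydrogenase, was at 206 to 372 CPM (median 257) in batch 1 and 359 CPM in 2A, against 306 to 440 CPM (median 373) in the later harvests and 356 CPM in 3C (log2 fold change -0.37, SE 0.0478, adjusted p = 5.61e-05). Its ranges overlapped, although its adjusted p, from a fit with a level for each strain, was among the smallest. *ADE13*, adenylosuccinate lyase, was at 1337 to 1431 CPM (median 1393) in batch 1 and 1681 CPM in 2A, against 1633 to 1867 CPM (median 1752) in the later harvests and 1335 CPM in 3C (log2 fold change -0.30, SE 0.0533, adjusted p = 0.000524). *IMD4*, an IMP dehydrogenase of GTP synthesis, had a log2 fold change of -0.34 (adjusted p = 0.000794), and its counts, like those of other genes that share sequence, were not whole. *ADE1* was also lower at -0.28, and *ADE2* did not pass the test (-0.05, adjusted p = 0.406).

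*OLE1*, the only fatty acid desaturase of yeast and the gene next to the FAR variant, was lower in batch 1. It was at 681 to 822 CPM (median 731) in batch 1 and 978 CPM in 2A, against 859 to 1277 CPM (median 1011) in the later harvests and 1007 CPM in 3C (log2 fold change -0.48, SE 0.0513, adjusted p = 9.13e-06). The ranges did not meet, and over all strains together both 2A and 3C were with the later libraries. The level differed by strain, however. The later *OAF1(L63S)* libraries were at 1204 to 1277 CPM, and the *OLE1(FAR)* libraries other than 3C at 883 to 1048 CPM. 3C was thus below the later *OAF1(L63S)* libraries, and 2A was within the range of *OLE1(FAR)*. *OLE1(FAR)* has no batch 1 culture, so the harvest difference comes from the other 4 strains. In these the log2 fold changes were -0.44 in *RGT2(V539I)*, -0.47 in *OAF1(L63S)*, -0.42 in YFA1130 and -0.56 in YFA1131. Without 2A that of *OAF1(L63S)* was -0.6. Fatty acid synthesis genes as a set had 5 of 22 members lower and 1 higher in all 25 libraries, and 12 lower and 3 higher without 2A and 3C. *FAA4*, a long-chain acyl-CoA synthetase, had -0.11 (adjusted p = 0.542), and -0.27 without 2A and 3C (adjusted p = 9.59e-05). The fatty acid synthase genes *FAS1* and *FAS2* had -0.06 and -0.13 (adjusted p = 0.755 and 0.415), and -0.19 and -0.25 without the 2 libraries, where both passed the FDR (adjusted p = 0.0445 and 0.019). *MGA2*, *IZH4* and *POX1* gave log2 fold changes of 0.15, 0.48 and 0.14 in all 25 libraries (adjusted p = 0.588, 0.556 and 0.91). Without 2A and 3C they gave -0.12, -0.42 and 0.63 (adjusted p = 0.0368, 0.00079 and 0.0324), so *MGA2* and *IZH4* changed sign.

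Among metal genes, 7 of 29 members of the iron regulon were lower and 2 higher. The median of the 29 genes was -0.31 in YFA1131, but -0.05 in *RGT2(V539I)*, -0.03 in *OAF1(L63S)* and 0 in YFA1130. The set's mean level overlapped, at -0.36 to -0.02 in batch 1 against -0.14 to 0.19 in the later harvests. *FET4*, a low-affinity iron transporter, was at 91.8 to 122 CPM (median 111) in batch 1 and 159 CPM in 2A, against 142 to 234 CPM (median 177) in the later harvests and 89.5 CPM in 3C (log2 fold change -0.61, SE 0.137, adjusted p = 0.00264). *ARN2*, a siderophore transporter, had a log2 fold change of -0.50 (adjusted p = 0.00036), while the cell wall siderophore proteins *FIT2* and *FIT3* did not pass the test (-0.20 and -0.10). *ZRT1*, the high-affinity zinc transporter, was at 1518 to 1876 CPM (median 1840) in batch 1 and 2292 CPM in 2A, against 1993 to 2871 CPM (median 2364) in the later harvests and 1664 CPM in 3C (log2 fold change -0.42, SE 0.0882, adjusted p = 0.00162). Sulfate assimilation and methionine genes were mixed, with 6 of 26 higher and 3 lower, *MET13* being at 0.67 (adjusted p = 0.000703). Ergosterol genes gave 4 of 27 higher and 2 lower. Of 32 vitamin synthesis and uptake genes 4 were higher and 2 lower, and 7 and 10 without 2A and 3C.

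General stress genes were higher in batch 1, 20 of 34 and none lower, with a median of 0.47. *TFS1*, an inhibitor of carboxypeptidase Y and of Ras GTPase-activating proteins, was at 32.1 to 37.4 CPM (median 35.2) in batch 1 and 20.5 CPM in 2A, against 14.6 to 31.3 CPM (median 21.2) in the later harvests and 28.7 CPM in 3C (log2 fold change 0.72, SE 0.122, adjusted p = 0.000358). *GRE3*, an aldose reductase, had a log2 fold change of 0.50 (adjusted p = 0.000344), and the mitochondrial peroxiredoxin *PRX1* had 0.47 (adjusted p = 0.000753). The small membrane chaperone *HSP12* was at 18 to 26.4 CPM (median 23.2) in batch 1 and 10.7 CPM in 2A, against 10.5 to 20.3 CPM (median 14.8) in the later harvests and 21.5 CPM in 3C (log2 fold change 0.42, SE 0.161, adjusted p = 0.0646). The cytosolic catalase *CTT1* had 0.40 (adjusted p = 0.0106), and *MSN4*, which encodes an activator of these genes, 0.12 (adjusted p = 0.208). The calls on *HSP12* and *HSP104* were lost without any of 5 single libraries. That on *HSP12* was also lost with OD600 in the fit (0.33, adjusted p = 0.181), and with batch terms and surrogate variables. The set's mean level spread widely in the later harvests, from -0.44 to 0.45 around their mean, against 0.29 to 0.53 in batch 1, -0.11 in 2A and 0.27 in 3C. Both ends of that later range were batch 3 libraries, and those of batch 2 lay between -0.17 and 0.22.

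Heat shock chaperones had 17 of 29 members higher and 2 lower, with a median of 0.25. *AHA1*, the co-chaperone that stimulates the ATPase of Hsp90, was at 122 to 137 CPM (median 129) in batch 1 and 113 CPM in 2A, against 87.9 to 111 CPM (median 101) in the later harvests and 112 CPM in 3C (log2 fold change 0.35, SE 0.0458, adjusted p = 5.65e-05). *SSE2*, a nucleotide exchange factor for Hsp70, was at 51.6 to 60.1 CPM (median 56.4) in batch 1 and 29 CPM in 2A, against 26.7 to 41.1 CPM (median 34) in the later harvests and 57.8 CPM in 3C (log2 fold change 0.70, SE 0.121, adjusted p = 0.000402). Neither gene's ranges overlapped. *SSA1*, a cytosolic Hsp70 which shares sequence with SSA2 and whose counts were not whole, had 0.59 (adjusted p = 0.000402), and the disaggregase *HSP104* had 0.67 (adjusted p = 0.0596). The ranges of *HSP104* overlapped, at 231 to 304 CPM in batch 1 against 97.5 to 419 CPM later. It was at 141 CPM in 2A and 275 CPM in 3C. *CUR1*, which sorts misfolded proteins to the nucleus, was one of the 2 that were lower, at -0.71 (adjusted p = 0.00519).

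Proteasome and ubiquitin genes had 18 of 35 members higher and none lower, but at a median of only 0.09. The polyubiquitin gene *UBI4* was at 150 to 196 CPM (median 179) in batch 1 and 123 CPM in 2A, against 94.8 to 137 CPM (median 118) in the later harvests and 189 CPM in 3C (log2 fold change 0.59, SE 0.0869, adjusted p = 0.000148), while the subunit genes *RPN6* and *SCL1* had 0.16 and 0.13. *RPN4*, which encodes their activator, had -0.26 (adjusted p = 0.15), and -0.37 without 2A and 3C (adjusted p = 0.00355). Oxidative stress genes had 13 of 29 higher and 2 lower, with the smallest adjusted p at the peroxiredoxin gene *AHP1*, at 0.40 (adjusted p = 0.000227). The unfolded protein response had 2 of 17 higher and none lower, *KAR2* being at 0.30 (adjusted p = 0.00865). Of 13 drug efflux genes 4 were higher, with the exporter *PDR5* at 0.44 (adjusted p = 3.26e-05), and 1 was lower, the polyamine exporter *TPO4*.

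**Figure D4:**
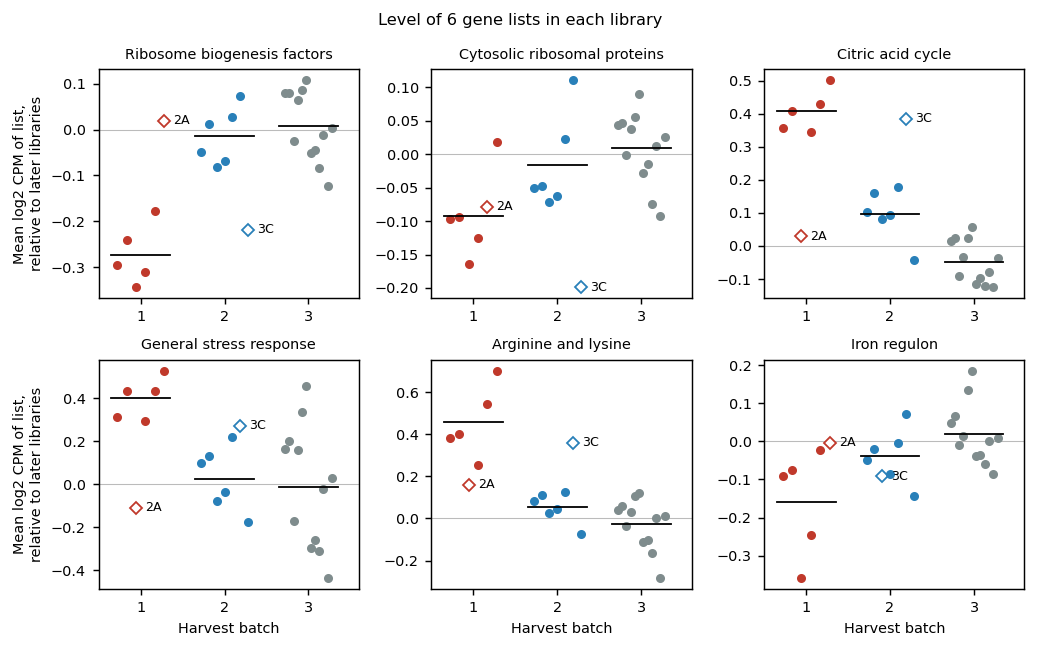
Mean log2 CPM of the members of 6 gene sets in each library, relative to the mean of the 18 later libraries other than 3C (y axes), by harvest batch (x axes). Points are libraries, lines are batch means without 2A and 3C, and open diamonds are those 2 libraries. Outside the diamonds, the citric acid cycle set is at 0.35 to 0.50 in batch 1 and at most 0.18 later, whereas the general stress set reaches 0.45 in batch 3.

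The promoters of the called genes were searched for 5 short motifs in the 500 bases before each start codon, on both strands, in the R64 (sacCer3) reference that the authors' processing also named. Windows were found for 5556 of the 5713 genes. The stress response element AGGGG, bound by Msn2 and Msn4, was in 47.3% of the windows of genes higher in batch 1 and 28% of those of genes lower in batch 1, against 34.1% of all windows. PAC, GATGAG, known from ribosome biogenesis promoters, was in 20.5% and 49.8% of these windows, against 28.3% of all. The Gcn4 site TGACTC was in 18.4% and 11.1%, against 12.9% of all. The heat shock element TTCNNGAA, at 20.3% and 20.7% against 21.2%, and the Cbf1 and Pho4 site CACGTG, at 6.64% and 5.12% against 6.35%, were near their share of all windows. Within the sets, PAC was in 107 of 117 ribosome biogenesis promoters, the stress response element in 31 of 34 general stress promoters, the heat shock element in 23 of 29 heat shock chaperone promoters (79.3%) and the Gcn4 site in 14 of 19 arginine and lysine promoters. The general stress set was drawn up around Msn2 and Msn4, and the other sets by role. Shares within the sets can thus follow from membership, whatever the harvest did. Windows of neighbouring genes that are transcribed apart can overlap, and a match is a description of the letters.

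One gene each for 3 of the motifs is printed to show the letters behind those shares, as 30 bases in the direction of the gene, with the motif in capitals. The windows are chrVIII:141564-141593 on the reverse strand for *ARG4*, chrIV:892568-892597 on the forward strand for *AHA1* and chrXVI:38968-38997 on the forward strand for *DIM1*, all upstream of the start codon.
ARG4, Gcn4 site, 174 to 179 bases before the start codon: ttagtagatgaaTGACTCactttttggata
AHA1, heat shock element, 289 to 296 bases before the start codon: acaatggaattTTCTAGAAgaaaaaacaaa
DIM1, PAC, 136 to 141 bases before the start codon: tttgaaaatcgcGATGAGctgaaaattgaa

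The genes with the largest differences among those that the naming rule allows were partly outside these sets. The rule asks for at least 5 CPM in the higher group and the same direction in all 4 strains. It also leaves out transposon and Y' element genes and IDs absent from RefSeq. Over all called genes, log2 fold changes ran from -2.58 to 3.52. *YMR196W*, of unknown function, was at 51.9 to 67 CPM (median 63.7) in batch 1 and 33.7 CPM in 2A, against 23.5 to 40.6 CPM (median 29.6) in the later harvests and 63.1 CPM in 3C (log2 fold change 0.98, SE 0.146, adjusted p = 0.000148). *ECM13*, of unknown function, had a log2 fold change of 1.25 and *AMS1*, the vacuolar mannosidase, 0.96. On the lower side, *TPO4* had -1.10, the zinc-responsive cell surface protein gene *ZPS1* -0.97 and *YOL014W*, of unknown function, -0.88. *ZPS1* was at 26.2 to 189 CPM in batch 1 and 168 CPM in 2A, against 71.9 to 435 CPM in the later harvests and 43.5 CPM in 3C, and its call was lost without 1A or without 5A. *NRD1*, of the complex that ends transcription of noncoding RNAs, was at 58.4 to 79.1 CPM (median 72.5) in batch 1 and 103 CPM in 2A, against 85.6 to 165 CPM (median 128) in the later harvests and 66.1 CPM in 3C (log2 fold change -0.75, SE 0.153, adjusted p = 0.00133). *NRG1*, a repressor of glucose-repressed genes, had -0.82 (adjusted p = 0.0109), and *BSC1*, *PRM7* and *SSP2* had -0.73, -0.67 and -0.71. *CYC7*, the minor form of cytochrome c, had the larger value of 1.59 but was at under 2 CPM in every library and is named after its value was seen.

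Markers of mating type moved little, and most of those of sporulation were not called. Of 5 MATa markers tested, 1 was higher (*BAR1*, the alpha factor protease, 0.18) and 1 lower (*STE2*, the alpha factor receptor, -0.09). Of 4 MATalpha markers 1 was lower (*SAG1*, -0.15). Of 17 meiosis and sporulation genes 1 was higher and 2 lower, with called values from -0.5 to 0.78. *STE2*, which MATa cells express, was at 1077 to 1265 CPM in batch 1 and 1304 CPM in 2A, against 1142 to 1323 CPM in the later harvests and 1282 CPM in 3C. Its call (adjusted p = 0.0696) was lost without any of 5 single libraries, with OD600 in the fit and with RNA isolation batch as a block (-0.08, adjusted p = 0.168).

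Batch 2 lay between batch 1 and batch 3 in part of these genes. Compared with each later batch in turn in all 25 libraries, batch 1 differed at 557 genes (9.75%) from batch 2 and at 2044 (35.8%) from batch 3. Without 2A and 3C these counts were 1301 (22.8%) and 2299 (40.2%). By their labels batch 2 holds 7 cultures and batch 3 holds 12, so the counts depend on group size as well as on the size of the differences. Batches 2 and 3 differed from each other at 20 genes, 13 higher in batch 2 (0.228%) and 7 lower (0.123%), and at 51 (0.893%) without the 2 libraries. The median of the citric acid cycle genes was 0.26 for batch 1 over batch 2, 0.35 for batch 1 over batch 3 and 0.11 for batch 2 over batch 3, all without 2A and 3C. For ribosome biogenesis these medians were -0.28, -0.31 and -0.02. *ACO1* averaged 1407 CPM in batch 1, 906 in batch 2 and 739 in batch 3, and *FET4* 110, 161 and 192 CPM, without 2A and 3C. *GPH1* averaged 57.3, 29.7 and 21.1 CPM, so the means of these 3 genes kept the order of the batches. *ARG4* averaged 667 CPM in batch 1, with batches 2 and 3 close together at 380 and 377 CPM.

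Culture density at harvest was recorded as OD600 in the sample table. By the paper's account, cultures were picked for RNA isolation so that OD600 was even within and between strains. Its range is therefore narrow by design, which limits what the comparisons with density can detect. In batch 1, 4 of 6 cultures were below the median of the later ones, and the difference did not pass the threshold (exact permutation test, two-sided, p = 0.0747, n = 6 and 19, and p = 0.0804 without 2A and 3C). Adjusted over the 3 measures of the table that were tested, this p was 0.224. With OD600 as a further term, 684 genes (12%) were higher and 665 (11.6%) lower in batch 1, and 1284 of the 1703 called without it were still called in the same direction. The log2 fold change of *ALD6* was 1.21 with the term and 1.38 without it, that of *ACO1* 0.65 and 0.72, and that of *DIM1* -0.42 and -0.45. Ribosome biogenesis had 94 of 117 members lower with and without the term. Cytosolic ribosomal proteins had 33 of 134 lower with it and 77 without it. When 2A and 3C were left out, 64 were lower with the term and 87 without it, where 17.4% of all genes were higher and 17.5% lower with the term. The respiratory chain had 7 of 34 higher with the term and 13 without it, but 22 in both fits when 2A and 3C were left out. The iron regulon had 3 of 29 lower with the term and 7 without it, with medians of -0.02 and -0.10, and 8 lower in both fits when 2A and 3C were left out.

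**Figure D5:**
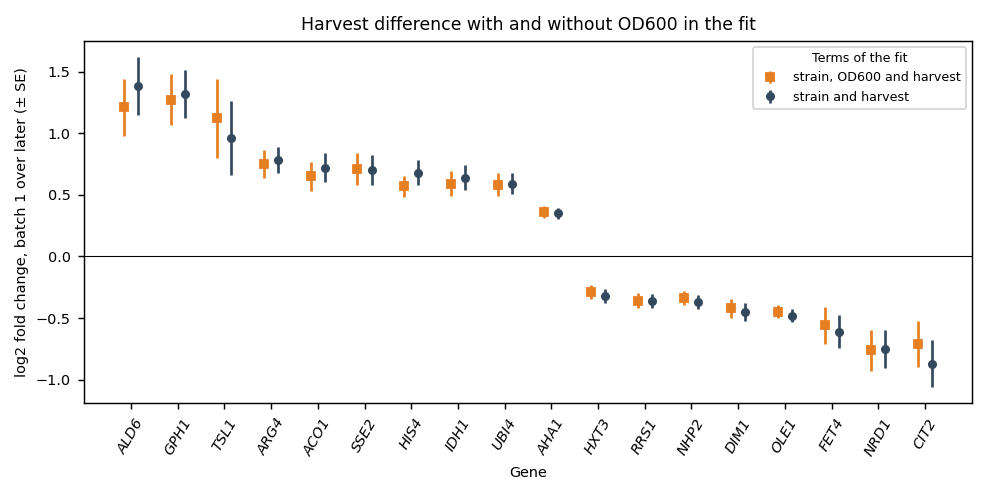
Log2 fold change of 18 genes, batch 1 over later harvests (y axis, error bars ± SE), from the fit with OD600 (squares) and without it (circles). *ARG4*, *HIS4*, *OLE1* and the other genes shown keep their sign, with *ALD6* at 1.21 with OD600 and 1.38 without it.

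Genes with a slope on density were fewer, over a range of OD600 kept narrow by the choice of cultures. With strain alone as covariate, 117 genes (2.05%) had a positive slope on OD600 and 105 (1.84%) a negative one. With harvest batch 1 as a term, 56 (0.980%) and 42 (0.735%) did. Within the 19 later libraries 13 genes (0.228%) had a positive slope and 0 a negative one, with 713 at an unadjusted p under 0.05 in either direction. The iron regulon had 13 of 29 members of positive slope and none negative. *FIT2* had a slope of 0.244 log2 units per 0.01 OD600 (adjusted p = 0.000451), 0.247 with harvest as a term (adjusted p = 0.000944) and 0.167 within the later libraries (adjusted p = 0.0984), and gave no harvest call. Arginine and lysine genes had negative slopes at 9 of 19 members, and histidine and aromatic genes at 10 of 22, over all 25 libraries with no harvest term. Within the 19 later libraries none of either set passed the FDR for the slope, and the median slopes were -0.033 and -0.037 there, against -0.105 and -0.072 over all libraries. Both sets were also higher in batch 1. Ribosome biogenesis, general stress and trehalose and glycogen genes had 0, 0 and 1 members past the FDR for the slope.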

How the data were processed

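RNA was sequenced from 25 cultures, and 1 library was analysed per culture. The deposited values are estimated counts per gene, which the authors obtained with kallisto against the R64 (sacCer3) transcriptome after trimming with Trimmomatic 0.38, following bcl2fastq 2.20.0.422 (per the labels' processing notes). They are not normalized. Of these values 6.46% were not whole, which marks genes that share sequence, and all were rounded. Of 6713 gene IDs, 6025 matched RefSeq symbols.

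Genes with a count above 0 in every library were tested (5713). Counts were scaled by TMM and fitted in edgeR 4.0.16 (R 4.3.3) with quasi-likelihood tests, strain as covariate and Benjamini-Hochberg adjustment over all genes tested, at an FDR of 10%. CPM are counts scaled to a common library size by TMM, and log2 levels used a pseudocount of 0.5. The labels number the cultures but say nothing of separate starting colonies, so p-values measure the spread between these cultures. They do not measure the spread between harvests. Harvest batch, RNA isolation batch, library preparation batch, OD600, RNA integrity and RNA concentration are those of the study's sample table, whose values are not printed here. With 9216531 to 14644996 counts per library, counting error is small beside the spread between cultures for most genes. Pairs of libraries of a strain differed by 5.32 to 52.5 times the sampling variance, so none was counted as a duplicate.

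Single genes were named by rule: the 10 largest rises and 10 largest falls among called genes with at least 5 CPM in the higher group and the same direction in all 4 strains, without transposon and Y' element genes or IDs absent from RefSeq, up to 3 called members per gene set by adjusted p, and OLE1, HXT1, FAA4, POX1, MGA2 and IZH4. A further 35 genes were added after their values were seen, among them GCN4, PCL5, RPL3, RPS9B, TPS1, TPS2, HSP12, HSP104, FAS1, FAS2, FIT2 and CYC7. A gene that the rule names is not reported here. The comparison and the gene sets were chosen with earlier results of these data known. Alternatives were DESeq2 1.42.0, RLE size factors, other filters, batch terms, 2 surrogate variables from sva 3.50.0, OD600 as a term, subsets of libraries and each library left out. The tests were tried on simulated counts first. Promoter windows were read from the R64 genome before the annotated start codon and include any 5' untranslated sequence.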

Additional observations from a re-analysis of the deposited data

Results flagged for a closer look

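Among the 6 batch 1 libraries, 33 of 168 genes looked at singly had 1 library farther from the others than Dixon's 95% limit for 6 values allows on the log2 scale, a limit that chance passes in about 1 in 20 groups. In 27 of the 33 that library was 2A.

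In 2A, genes of metabolism and stress called higher in batch 1 were low. ALD6 was at 230 CPM, AMS1 at 17.5, ARG3 at 87.8, ARG4 at 404, GPP2 at 78.6, GRE3 at 75.3, GSY2 at 70.3, PGM2 at 37.1 and TSL1 at 19.9 CPM. HSP104 was at 141, SSE2 at 29.0, TFS1 at 20.5, AHP1 at 1342, MUP1 (methionine uptake) at 164, HEM14 (heme synthesis) at 39.5 and YMR196W at 33.7 CPM. TPS1, which was not called, was at 134 CPM. The genes of growth lower in batch 1 were high in it, with ADE13 at 1681, IMD4 at 975, URA5 at 317, HXT3 at 4102, TIF35 at 426, DIM1 at 152, RRS1 at 158, RPA43 at 233, RPA49 at 318 and RPC34 at 75.4 CPM. Each of these 27 values lay on the side of the later harvests.

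The other 6 genes singled out other libraries. 2B, the other OAF1(L63S) culture, was high in POX1 (22.8 CPM, against at most 2.84 in the others) and low in RPL3 (4636) and SPT23 (81.0), a homologue of MGA2. 1A was high in BAR1 (494) and low in ZPS1 (26.2), and 5A was low in CAT2 (8.94), carnitine acetyltransferase.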

How the results depend on the processing

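The number of genes called, 1703 in all 25 libraries (850 higher and 853 lower in batch 1), ran from 1291 to 2057 when each library was left out in turn (621 to 1031 higher, 670 to 1026 lower). The lowest count came without 1A and the highest without 2A. Against batch 2 alone it was 557 (297 higher, 260 lower). Under the other alternatives the count was within 1.5 times, at 1708 with DESeq2, 1703 with RLE size factors, 1617 with no filter, 1705 with at least 10 counts in every library, 1694 with isolation and preparation batch, 1739 with 2 surrogate variables as well, 1582 without the strain term and 1714 in the 20 libraries of 4 strains. With isolation batch as a replicate block it was 1806. Scaling by RLE gave a median over all genes of 0.004, against 0.007 with TMM.

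The number of genes with a slope on OD600, 222, was 13 in the later libraries alone, 98 with harvest batch 1 as a term, 119 with that term and without 2A and 3C, and 334 with DESeq2. Without 2A and 3C the strain by harvest terms still gave 0 calls in edgeR, with 533 at an unadjusted p under 0.05.

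Of 168 single genes, 47 lost their call against batch 2 alone, 7 with OD600 in the fit, 8 without the strain term and 3 with the replicate block. A further 4 did so with isolation and preparation batch, 5 with 2 surrogate variables as well, and 14 against batch 2 without 2A and 3C, some genes being lost in several fits. Calls were gained in the same direction by 7 genes without 2A and 3C, 7 with surrogate variables, 2 with isolation and preparation batch and 3 with the replicate block. MGA2 changed sign and passed the FDR without 2A and 3C (-0.12), also with OD600 added (-0.13) or against batch 3 (-0.13). IZH4 did so without 2A and 3C (-0.42), with OD600 added (-0.40), against batch 2 (-0.38) and against batch 3 (-0.44). The cause was not tested beyond leaving those 2 libraries out. Combinations of leaving out 2A and 3C with another change were chosen after seeing the data. With 6 batch 1 cultures, 2 strains are represented by 1 of them each.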
